A study of Mus musculus with 11 samples.

Results

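Among the long noncoding RNAs of haematopoietic stem cells (HSCs), 10 genes are described here: Gas5, Snhg1, Snhg3, Snhg5, Snhg6, Snhg8 and Snhg12, which carry small nucleolar RNAs (snoRNAs) in their introns, the nuclear RNAs Malat1 and Neat1, and Dleu2, the host of a microRNA pair. They were chosen by symbol, not by a measured value, from 24039 genes of the size-gated libraries, and each had 1 transcript in those files. All 10 were among the 10615 genes that passed the filter of at least 1 RPKM in at least 3 of the 7 gated libraries, Dleu2 only just. RPKM is a read number corrected for library depth and for transcript length, so levels of different genes can be set side by side.

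The libraries came from livers of newborn (postnatal day 0) wild-type C57BL/6 mice and were made by Smart-seq2, which copies whole polyadenylated transcripts from small numbers of cells. The scatter gates, which sort cells by forward scatter area, a common stand-in for size, gave 4 libraries named FSC-A High and 3 named FSC-A Low. Another 4 libraries, named WT HSC and called unfractionated here, have no scatter gate in the labels. In all 3 groups the cells had been sorted as Lin-, Sca1+, cKit+, CD150+ and CD48-, at 100 to 200 cells a library. Whether replicates are separate animals is not said in the labels; p-values thus cover the spread between these libraries only, and that spread may be technical. The files hold a bulk value per library, in which fewer cells of a type and less RNA per cell cannot be told apart.

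Small nucleolar RNAs guide chemical modification and processing of ribosomal RNA: those of the box C/D class, named Snord, guide 2′-O-methylation, and those of the box H/ACA class, named Snora, guide pseudouridylation. In mammals they are mostly cut out of introns, and the spliced host RNA that remains is often unstable, since nonsense-mediated decay acts on it when ribosomes translate it. Many host genes, Gas5 among them, belong to the class with a 5′ terminal oligopyrimidine tract, whose translation follows growth signals, as that of ribosomal protein mRNAs does. Malat1 and Neat1 are unlike them in that both stay in the nucleus, Malat1 at nuclear speckles, where splicing factors are stored, and Neat1 as the scaffold of paraspeckles.

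To show what the introns of each host encode, 1 snoRNA per host is given from GENCODE M21 on GRCm38, 5′ to 3′ and written as DNA. Capitals mark the letters TGATGA of box C within 25 bases of the 5′ end, CTGA of box D within 20 bases of the 3′ end, and in box H/ACA RNAs the last ACA within 15 bases of the 3′ end, searched on the RNA's strand only.
Snord47 (Gas5, chr1:161038082-161038158, plus strand): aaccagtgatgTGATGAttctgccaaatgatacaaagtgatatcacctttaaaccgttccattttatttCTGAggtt
Snord22 (Snhg1, chr19:8725866-8725991, plus strand): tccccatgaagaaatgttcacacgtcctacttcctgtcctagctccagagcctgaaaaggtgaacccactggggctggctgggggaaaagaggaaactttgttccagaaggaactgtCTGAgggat
Snord50a (Snhg5, chr9:88521529-88521600, minus strand): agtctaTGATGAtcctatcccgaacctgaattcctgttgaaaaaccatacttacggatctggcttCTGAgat
Snord87 (Snhg6, chr1:9942463-9942549, minus strand): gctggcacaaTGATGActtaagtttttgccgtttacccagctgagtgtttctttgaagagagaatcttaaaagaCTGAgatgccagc
Snord99 (Snhg12, chr4:132310691-132310764, plus strand): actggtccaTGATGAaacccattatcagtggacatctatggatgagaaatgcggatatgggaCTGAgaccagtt
Snora73a (Snhg3, chr4:132352775-132352979, minus strand): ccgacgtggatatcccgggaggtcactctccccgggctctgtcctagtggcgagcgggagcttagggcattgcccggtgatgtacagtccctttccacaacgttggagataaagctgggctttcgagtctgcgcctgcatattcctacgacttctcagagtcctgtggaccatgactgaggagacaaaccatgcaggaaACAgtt
Snora24 (Snhg8, chr3:123507937-123508066, minus strand): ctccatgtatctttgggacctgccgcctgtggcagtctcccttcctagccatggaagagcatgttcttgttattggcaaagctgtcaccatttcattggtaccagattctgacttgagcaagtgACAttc
The letters TGATGA were found in 71.4% and CTGA in 98.0% of 98 Snord entries, and ACA in 95.2% of 42 Snora entries, each in the same window. Snord22 holds no TGATGA in that window. RefSeq places 8 snoRNAs inside Gas5, 8 inside Snhg1, 4 inside Snhg12, 2 inside Snhg3, 2 inside Snhg5 and 1 each inside Snhg6 and Snhg8.

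The starts of the host genes are shown for those called in the comparison of High with Low that have an entry, each as 100 bases of the RefSeq promoter table (GRCm38.p6) with the annotated start at base 51. Capitals mark TATAA or TATATA, which can overlap, on either strand in the 50 bases before the start.
Gas5 (chr1:161035116-161035215, plus strand): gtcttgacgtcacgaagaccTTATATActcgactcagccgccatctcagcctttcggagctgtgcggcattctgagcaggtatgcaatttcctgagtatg
Snhg1 (chr19:8723437-8723536, plus strand): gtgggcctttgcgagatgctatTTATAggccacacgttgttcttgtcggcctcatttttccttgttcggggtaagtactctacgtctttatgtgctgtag
Snhg8 (chr3:123508287-123508386, minus strand): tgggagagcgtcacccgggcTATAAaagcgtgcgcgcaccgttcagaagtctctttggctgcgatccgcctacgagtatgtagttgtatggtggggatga
Snhg3 (chr4:132353637-132353736, minus strand): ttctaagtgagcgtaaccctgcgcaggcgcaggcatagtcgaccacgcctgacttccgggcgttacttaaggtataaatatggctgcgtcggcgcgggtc
Either motif was found before the start of 5 of the 6 host genes with an entry (Gas5, Snhg1, Snhg5, Snhg8 and Snhg12), against 6.77% of 32851 promoters in the table. For Gas5 it was at 1 of 2 annotated starts, the one shown. No motif was looked for after the start.

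The markers of the sort were present: all 7 HSC markers (among them Kit, Ly6a and Slamf1) were at 1 RPKM or more in every gated library. Their summed level was 180.05 to 275 RPKM in FSC-A High and 374 to 501 RPKM in FSC-A Low. Cd48, absent from the sorted cells by its protein, was at 0.0822 to 3.32 RPKM in FSC-A High and 0.946 to 1.75 RPKM in FSC-A Low. The 4 lymphoid markers together reached at most 0.431 RPKM in FSC-A High and 0.429 RPKM in FSC-A Low, with 2 of the 4 at 0 in every library of each group. The 5 erythroid markers summed to 12.8 to 28.4 RPKM in FSC-A High and 15.4 to 25.96 RPKM in FSC-A Low, and the 4 hepatocyte markers to 11.3 to 15.7 RPKM in FSC-A High and 7.25 to 16.3 RPKM in FSC-A Low. Of 6 myeloid markers Lyz2 made up nearly all of the sum, at 178 to 265 RPKM in FSC-A High and 162 to 163 RPKM in FSC-A Low, while Ctsg was at 0 in all 7 libraries. Mpo was at 2.32 to 8.27 RPKM in FSC-A High and 2.78 to 12.005 RPKM in FSC-A Low. The 4 megakaryocyte markers summed to 67.2 to 100.1 RPKM in FSC-A High and 48.7 to 62.4 RPKM in FSC-A Low. Of 4 endothelial markers Pecam1 made up most of the sum, at 2.24 to 7.88 RPKM in FSC-A High and 9.69 to 15.5 RPKM in FSC-A Low. Markers of mitosis (Mki67, Top2a, Ccnb1, Cdk1) summed to 208 to 240 RPKM in FSC-A High against 11.7 to 17.3 RPKM in FSC-A Low. The depth, estimated from the step between low values, was 65.7 M to 85.0 M reads for FSC-A High and 69.5 M to 98.1 M for FSC-A Low. A further measure moved with the groups: over 10475 genes with a known length, short transcripts tended to be higher and long ones lower in FSC-A High (Spearman's rho of the difference with length -0.42, a description across genes, which are not independent). Mitosis, HSC marker sums and the length trend all run along the same contrast as the results on the host genes, as do Lyz2, Pecam1 and the sum of megakaryocyte markers. Their part in those results, apart from that of length, was not tested. For the length trend, values with it removed are given beside the results on the 10 genes and on the lists, and for single genes of a list where the removal ends a call or moves the value by over 1.5 times.

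The gated groups were tested against each other with limma on log2(RPKM + 1) over all genes. Differences are on this scale, as High minus Low, which understates the change of low genes, and a gene was called at an adjusted p (Benjamini-Hochberg, over 10615 genes) below 0.05. Of all genes tested, 27.3% were called, 15.6% as higher and 11.7% as lower in FSC-A High. Of the 10 noncoding genes 5 were called, Gas5, Snhg1, Snhg3, Snhg6 and Snhg8, all of them as higher and all of them snoRNA hosts. That is 5 of the 7 host genes, whose median log2 difference was 0.96, against -0.04 over all genes tested. The libraries of the groups did not overlap, with FSC-A High above, for 6 of the 7 hosts, a pattern seen in 18.9% of all genes. With the trend over transcript length and GC content removed from each library, the hosts' median difference was 0.12 and 1 of them, Gas5, was called. A further scaling used library totals, where the total is the sum of a library's RPKM over genes and not its reads. Scaling by these library totals in place of the deposited scaling moved the median of all genes to -0.31. That of the hosts moved to 0.65, with 3 hosts called (Gas5, Snhg1 and Snhg8). Under that scaling 977 of all genes were called higher and 2285 lower, against 1654 higher and 1245 lower as deposited.

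**Figure D1:**
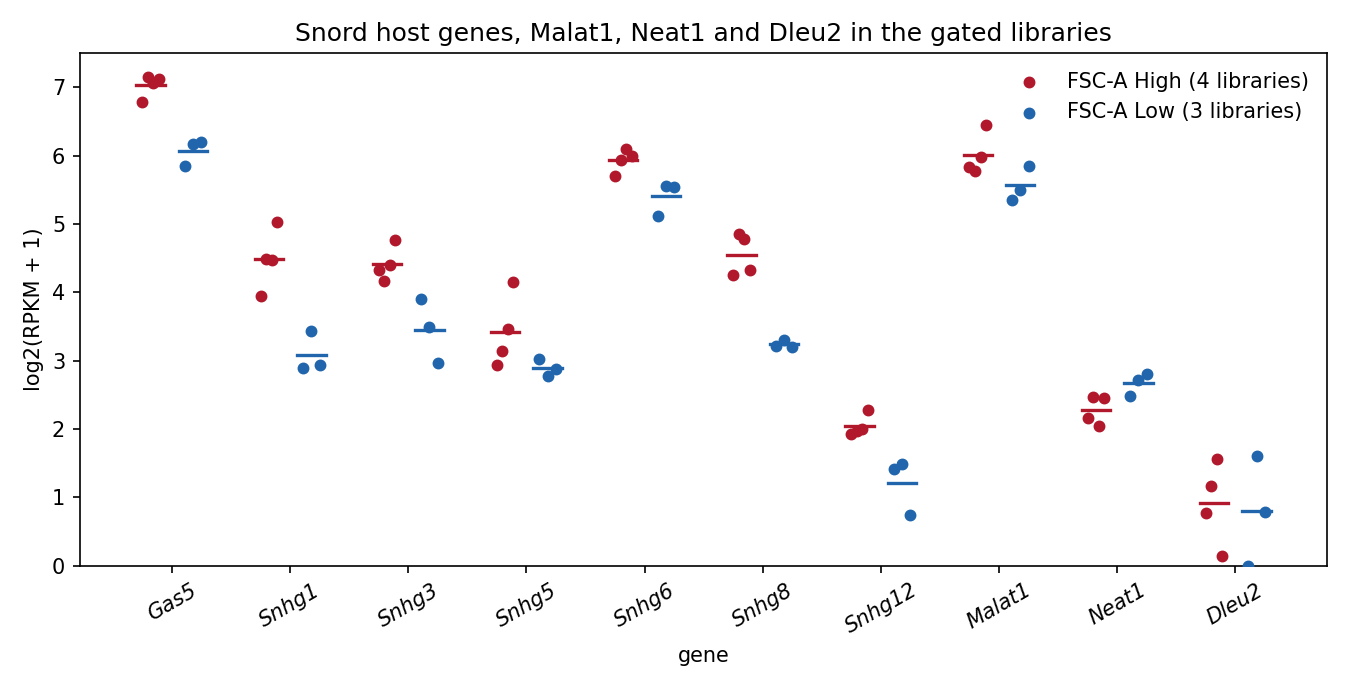
Expression of the 10 noncoding genes as log2(RPKM + 1), with 1 point per library of FSC-A High (4) and FSC-A Low (3) and a bar at each group mean. Gas5, Snhg1, Snhg3, Snhg6, Snhg8 and Snhg12 lie higher in every FSC-A High library than in any FSC-A Low library, Neat1 lies lower in every one, and the groups overlap for Snhg5, Malat1 and Dleu2.

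Gas5 (growth arrest specific 5, chr1:161034601-161038539) is known to accumulate when growth stops and its RNA is no longer translated and decayed. It was at 109.6, 140.3, 133 and 137 RPKM in the 4 FSC-A High libraries and at 56.5, 71.2 and 72.0 RPKM in the 3 FSC-A Low libraries. Every High library was thus well above every Low library. The means were 130.1 ± 13.98 RPKM in FSC-A High (SD, n = 4) and 66.6 ± 8.72 RPKM in FSC-A Low (SD, n = 3), a 1.95-fold ratio of means. The log2 difference was 0.96 with an SE of 0.16 (limma, adjusted p = 0.000758). Gas5 was called under all 23 alternatives tried, with differences between 0.61 and 1.08, and with the length and GC trend removed it was 0.91 (limma, adjusted p = 0.00215). The GENCODE transcript matched to its entry is one with retained introns, 2556 nt long, so the length used in that removal is uncertain.

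The beginning of Gas5 overlaps Zbtb37 by 264 nt. Smart-seq2 does not mark the strand of a read, and how reads in shared stretches were assigned is not given in the sources used here.

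Snhg1 (chr19:8723487-8726326) hosts the box C/D RNAs around Snord22 printed above. It was at 14.4, 21.4, 21.1 and 31.5 RPKM in FSC-A High and at 6.42, 9.76 and 6.66 RPKM in FSC-A Low. All FSC-A High libraries exceeded all FSC-A Low libraries, although the High libraries spread widely. The log2 difference of 1.40 (SE 0.28, limma adjusted p = 0.00311) was the largest among the 10 genes as deposited, and the ratio of means was 2.90. It was 0.54 once the length and GC trend was removed (limma, adjusted p = 0.169), which ended the call for this transcript of 605 nt.

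Snhg8 (chr3:123507552-123508336) carries the H/ACA RNA Snora24. It was at 17.98, 27.7, 26.5 and 18.99 RPKM in FSC-A High and at 8.32, 8.90 and 8.17 RPKM in FSC-A Low. The Low libraries were close together and the High libraries fell into a lower and a higher pair, all above Low. The means were 22.8 ± 5.02 RPKM in FSC-A High (SD, n = 4) and 8.46 ± 0.387 RPKM in FSC-A Low (SD, n = 3), a log2 difference of 1.31 with an SE of 0.24 (limma, adjusted p = 0.00162). Removing the length and GC trend left 0.57 (limma, adjusted p = 0.105), and removing the length trend alone left 0.70 (limma, adjusted p = 0.0486). The matched transcript, of 776 nt, retains the intron, so reads of Snora24 or of unspliced RNA would count for it.

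Snhg3 (chr4:132351933-132353686) holds Snora73a and Snora73b, the mouse U17 RNAs, which act in the cutting of ribosomal RNA precursors. It was at 19.1, 16.9, 20.2 and 26.04 RPKM in FSC-A High and at 13.9, 10.3 and 6.83 RPKM in FSC-A Low. The groups did not overlap, and the Low libraries spread over a factor larger than the High libraries did. The log2 difference was 0.96 (SE 0.27, limma adjusted p = 0.0186) and became 0.09 without the length and GC trend (limma, adjusted p = 0.858). The call was also lost without FSC-A High 4 (0.84, limma adjusted p = 0.0511) and without FSC-A Low 3 (0.72, limma adjusted p = 0.0739). Its 437 nt make it the second shortest of the 10 transcripts.

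Snhg6 (chr1:9942025-9944118), which hosts Snord87, was at 50.8, 60.1, 67.5 and 62.9 RPKM in FSC-A High and at 33.6, 46.2 and 45.6 RPKM in FSC-A Low. The lowest High library was only slightly above the highest Low library. The log2 difference of 0.53 (SE 0.18) passed narrowly (limma, adjusted p = 0.0461) and was called under 8 of 23 alternatives. Leaving out any library other than FSC-A High 1 ended the call, with differences of 0.38 to 0.61 (limma, adjusted p of 0.0512 to 0.176). It turned to -0.31 with the length and GC trend removed (limma, adjusted p = 0.202) and to -0.11 with the length trend alone removed (limma, adjusted p = 0.692). At 400 nt this is the shortest of the 10 transcripts, and 1582 nt of its gene span overlap Mcmdc2.

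Snhg12 (chr4:132308678-132311024) hosts RNAs of both classes, Snord99 and 3 Snora genes. It was at 2.81, 2.94, 3.00 and 3.85 RPKM in FSC-A High and at 1.67, 1.80 and 0.666 RPKM in FSC-A Low. The groups did not overlap, but the log2 difference of 0.83 (SE 0.32) did not pass (limma, adjusted p = 0.0740). The test passed under 1 of 22 alternatives, the removal of a trend over expression level, at 1.08 (limma, adjusted p = 0.0278), while removal of the length and GC trend left 0.12.

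Snhg5 (chr9:88521052-88522897), the host of Snord50a, was at 6.65, 7.78, 10.01 and 16.8 RPKM in FSC-A High and at 7.14, 5.84 and 6.35 RPKM in FSC-A Low. The groups overlapped, since the first High library lay below the first Low library. The fourth High library was the highest, as it also was for Snhg1, Snhg3, Snhg12 and Malat1. The log2 difference of 0.53 (SE 0.32) did not pass (limma, adjusted p = 0.243), and it was -0.13 with the length and GC trend removed.

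**Figure D2:**
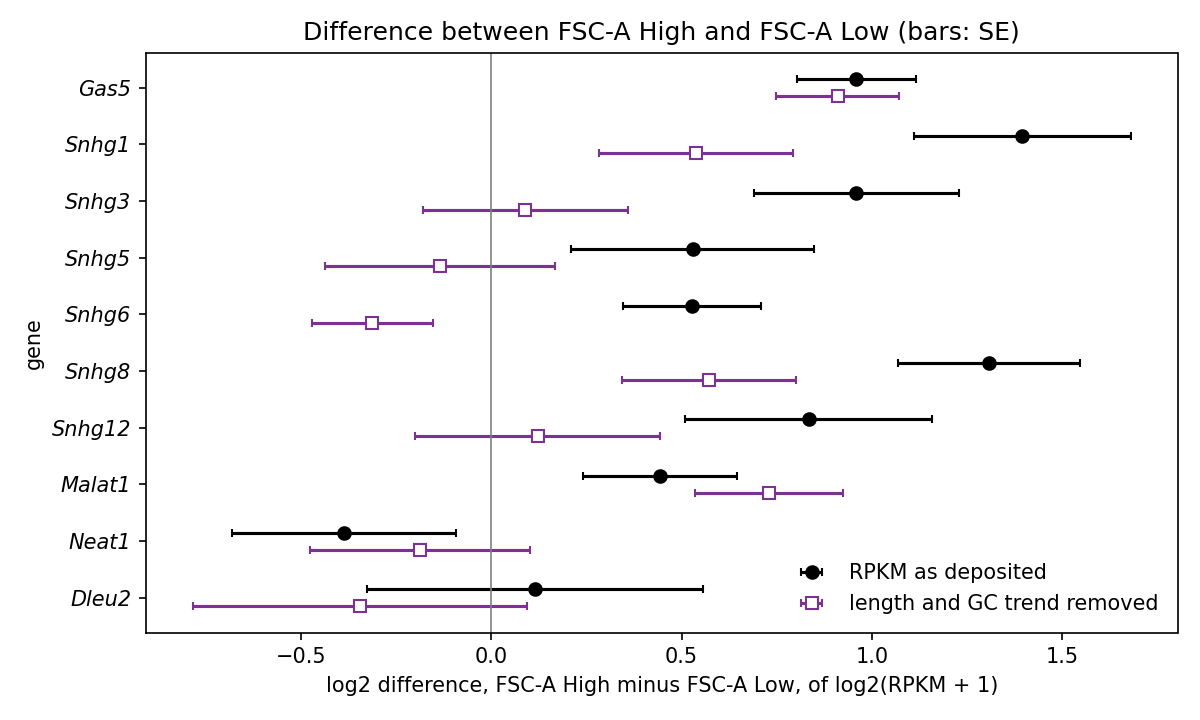
Log2 difference of log2(RPKM + 1), FSC-A High minus FSC-A Low, for each of the 10 genes, with the SE of limma as bars. Filled circles are the deposited RPKM, and open squares the values after the trend over transcript length and GC content was removed from each library. Gas5 stays near 0.9, the other host genes move toward or past 0, and Malat1 moves to 0.73.

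The nuclear RNAs were not called, and they lay on opposite sides of 0. Malat1 (chr19:5795690-5802672) was at 55.8, 53.7, 61.7 and 86.6 RPKM in FSC-A High and at 39.6, 44.2 and 56.7 RPKM in FSC-A Low. The third Low library lay among the High libraries, and the fourth High library stood above the rest. The means were 64.5 ± 15.1 RPKM in FSC-A High (SD, n = 4) and 46.8 ± 8.84 RPKM in FSC-A Low (SD, n = 3). The log2 difference was 0.44 with an SE of 0.20 (limma, adjusted p = 0.126). For this transcript of 6983 nt, the longest of the 10, removing the length and GC trend raised the difference to 0.73 (limma, adjusted p = 0.0221), while scaling by library totals lowered it to 0.14 (limma, adjusted p = 0.646). Its sign was positive under all 23 alternatives, and it was called under 2, the removals of the length trend with and without GC.

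Neat1 (chr19:5824708-5845480) was at 3.47, 4.53, 3.12 and 4.47 RPKM in FSC-A High and at 4.58, 5.58 and 6.00 RPKM in FSC-A Low. Every Low library was above every High library, the second High library only just below the first Low one. Such a gap with FSC-A High below was seen in 16% of all genes. The means were 3.90 ± 0.712 RPKM in FSC-A High (SD, n = 4) and 5.38 ± 0.725 RPKM in FSC-A Low (SD, n = 3), and the log2 difference of -0.39 (SE 0.29) did not pass (limma, adjusted p = 0.359). It was negative and not called under all 22 alternatives that gave a value, and it was -0.19 once length and GC were corrected for. The entry measured is the short isoform of 3004 nt, while the gene spans 20773 nt. The long isoform, on which paraspeckles depend, was not measured apart from it.

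Set beside the nuclear RNAs library by library, the hosts were relatively higher in FSC-A High. The mean log2(RPKM + 1) of the 7 hosts was 4.27, 4.53, 4.61 and 4.81 in FSC-A High and 3.63, 3.75 and 3.49 in FSC-A Low. Minus the mean of Malat1 and Neat1, this gave 0.27, 0.41, 0.60 and 0.35 in FSC-A High and -0.28, -0.36 and -0.84 in FSC-A Low. The sign thus differed between the groups in every library. The group means were 0.41 ± 0.14 in FSC-A High (SD, n = 4) and -0.49 ± 0.30 in FSC-A Low (SD, n = 3), 0.90 apart; no test was made, because the score is taken over chosen members. After removal of the length and GC trend the means were 0.02 ± 0.09 (SD) in FSC-A High and 0.03 ± 0.33 (SD) for FSC-A Low, a difference of -0.016. The difference was 0.088 with the length trend alone removed and 0.92 with the GC trend alone removed.

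**Figure D3:**
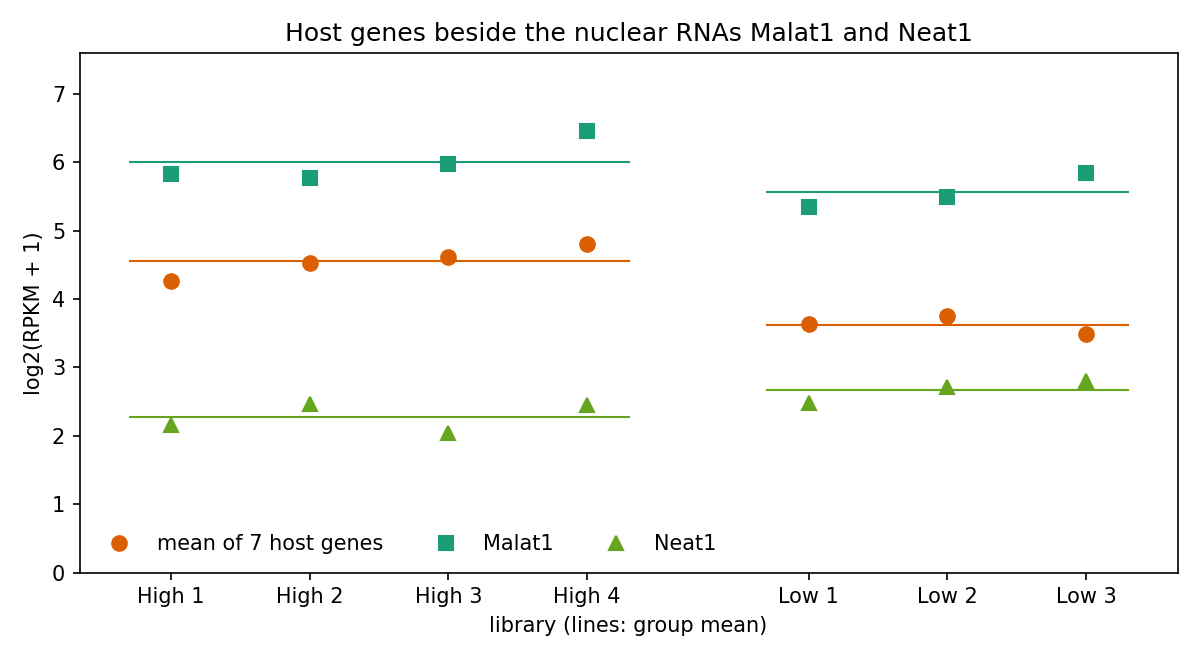
Mean log2(RPKM + 1) of the 7 host genes beside Malat1 and Neat1 in each gated library, with lines at the group means. The host mean lies between 4.27 and 4.81 in FSC-A High and between 3.49 and 3.75 in FSC-A Low, while Malat1 overlaps between the groups and Neat1 lies lower in FSC-A High.

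Ratios between single genes do not depend on how a library was scaled. Malat1 over Gas5 was 0.509, 0.383, 0.464 and 0.630 in FSC-A High and 0.700, 0.621 and 0.787 in FSC-A Low, with the fourth High library just inside the Low range. Gas5 over Neat1 was 31.6, 31.0, 42.7 and 30.7 in FSC-A High and 12.3, 12.8 and 12.02 in FSC-A Low, without overlap. Both pairs differ in transcript length, and no test was made of these ratios. Snhg6 over Snhg8, a ratio of 2 short transcripts, was 2.83, 2.17, 2.55 and 3.31 in FSC-A High and 4.04, 5.19 and 5.58 in FSC-A Low, again without overlap.

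By transcript length, 6 of the 7 hosts lay on the short side of the trend, and Gas5, Neat1 and Malat1 at or above the median length. The 7 hosts had a median length of 606 nt, Malat1 and Neat1 were 6983 and 3004 nt long, and the median over all genes was 2542 nt. In the group of genes with a median length of 393 nt the median log2 difference was 0.39, and in that of 806 nt it was 0.65. In the groups of 5853 and 7942 nt it was -0.38 and -0.33. Against genes of their own length, Gas5, Malat1, Snhg1, Snhg3, Snhg8 and Snhg12 stood above the median. Snhg5, Snhg6 and Neat1 were close to it, Neat1 on its lower side, and Dleu2 was below it. Only Gas5 and Malat1 were called with the length and GC trend removed.

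**Figure D4:**
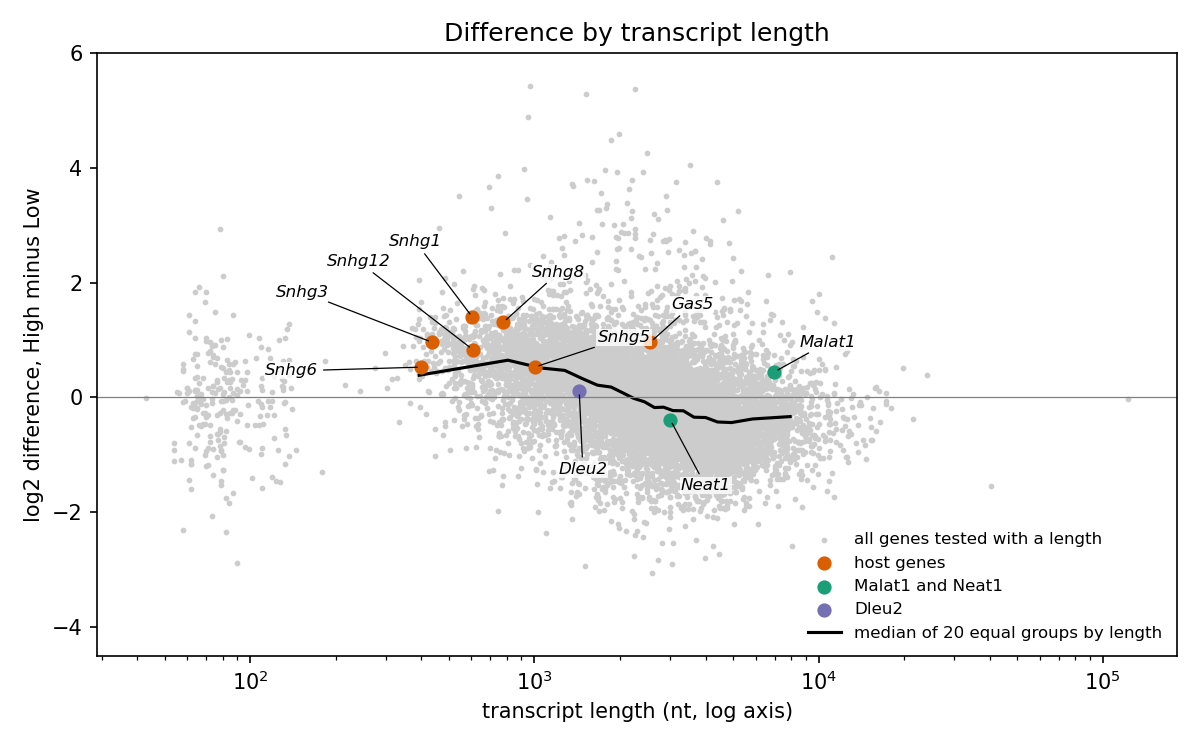
Log2 difference of log2(RPKM + 1), FSC-A High minus FSC-A Low, against transcript length in nt on a log axis, with each gene tested in grey and the median of 20 equal groups by length as a line. The line runs above 0 for short and below 0 for long transcripts. Gas5, Malat1, Snhg1, Snhg3, Snhg8 and Snhg12 lie above it, Snhg5, Snhg6 and Neat1 close to it, with Neat1 on its lower side, and Dleu2 below it.

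Dleu2 (chr14:61602836-61682373) is the host of Mir15a and Mir16-1, microRNAs known as brakes on the cell cycle and lost in many human chronic lymphocytic leukaemias. Their mature 5p forms, from RefSeq (GRCm38.p6, chromosome 14, minus strand), share the seed of bases 2 to 8, in capitals.
mmu-miR-15a-5p (chr14:61632075-61632096): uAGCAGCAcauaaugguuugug
mmu-miR-16-5p (chr14:61631936-61631957): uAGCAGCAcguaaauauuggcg
Dleu2 was at 0.701, 1.24, 1.96 and 0.104 RPKM in FSC-A High and was listed at 0 and at 2.04 and 0.714 RPKM in FSC-A Low. These values are near the filter, the groups overlapped, and the log2 difference was 0.11 (SE 0.44, limma adjusted p = 0.875). Removing the length and GC trend left -0.35. Both microRNA genes were at 0 in all 11 libraries. Smart-seq2 copies polyadenylated RNA, so this says nothing of the mature microRNAs. At its far end Dleu2 overlaps Trim13, a ubiquitin ligase gene, by 7452 nt, and Kcnrg by 5377 nt. Trim13 had a log2 difference of -0.75 (limma, adjusted p = 0.185).

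Few entries for the intronic RNAs were present in the gated files: 1 of the 8 of Gas5, 1 of the 8 of Snhg1, all 4 of Snhg12, and those of Snhg6 and Snhg8. Snord87 in Snhg6 was at 6.59, 6.68, 8.88 and 12.8 RPKM in FSC-A High and at 5.63, 11.1 and 7.98 RPKM in FSC-A Low. Snora24 in Snhg8 was at 6.44, 2.57, 6.46 and 0.993 RPKM in FSC-A High and at 1.28, 4.62 and 3.77 RPKM in FSC-A Low. Both overlapped between the groups. Snord22 in Snhg1 was at 3.14, 3.53, 2.00 and 2.79 RPKM in FSC-A High and at 0, 1.78 and 1.49 RPKM in FSC-A Low, without overlap, in the same direction as its host. The gap was narrow, 2.00 RPKM against 1.78 RPKM, and such a pattern was seen in 18.9% of all genes. Snord47 in Gas5 was at 0.937, 2.28, 0.861 and 0 RPKM in FSC-A High and at 1.07, 3.60 and 1.55 RPKM in FSC-A Low. Its groups overlapped, with the highest value in FSC-A Low, unlike its host. All 4 entries of Snhg12 were at 0 in FSC-A High 4, and their groups overlapped. Such reads may belong to unspliced host RNA, and mature snoRNAs, which have no poly(A) tail, are not captured by design.

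Other long noncoding snoRNA hosts were listed as well. Of 10 tested among 13 listed, 2 were called higher and 8 did not pass, a share near the 15.6% of all genes, with a median log2 difference of 0.36. With library total scaling 1 was called lower and no call was higher, and the same counts held among the 8 that could be corrected for length and GC, whose median was then -0.29. Although listed as hosts, Snhg10 and Snhg20 hold no snoRNA in the RefSeq annotation used here. The gene called lower with length and GC corrected for was Snhg20 (-0.58, limma adjusted p = 0.0137). Zfas1, whose introns hold Snord12 genes, averaged 35.5 ± 7.21 RPKM in FSC-A High (n = 4) and 19.5 ± 4.02 RPKM in FSC-A Low (SD, n = 3, limma log2 difference 0.83, adjusted p = 0.0178). No length was known for Zfas1, so it could not be corrected for length and GC. Snhg15 averaged 62.3 ± 15.7 RPKM in FSC-A High (n = 4) and 38.1 ± 1.93 RPKM in FSC-A Low (SD, n = 3; limma log2 difference 0.66, adjusted p = 0.0246), but the length and GC trend removal left -0.048. Its call was lost without any of FSC-A High 2 and 3 and FSC-A Low 1 and 3 (0.51 to 0.67). The call of Zfas1 was lost without FSC-A High 2 (0.75, limma adjusted p = 0.0549) and without FSC-A Low 1 (0.67, limma adjusted p = 0.0727). Across all 355 tested genes that RefSeq annotates as long noncoding, 40 were called higher, 12 lower and 303 did not pass, with a median of 0.12.

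Of the 34 protein-coding snoRNA hosts tested, 23 were called higher, 1 lower and 10 did not pass, with a median log2 difference of 0.72 (17 higher and 3 lower with library total scaling, 13 higher and 1 lower without the length and GC trend). That group is largely one of ribosomal protein genes: the 14 hosts that are none had a median of 0.15, with 4 higher, 1 lower and 9 not passed. Their median turned to -0.16 with library total scaling, with 2 higher and 3 lower, and was 0.22 without the length and GC trend, with 3 higher and 1 lower. Over all genes tested, 15.6% were called higher and 11.7% lower. With library total scaling 977 of 10617 genes were higher and 2285 lower. Without the length and GC trend 1026 of 10475 genes were higher and 781 lower. Rps2, a small subunit protein, averaged 354 ± 37.9 RPKM in FSC-A High (n = 4) and 142 ± 4.56 RPKM in FSC-A Low (SD, n = 3; limma log2 difference 1.30, adjusted p = 2.42e-05; 0.86 without the length and GC trend). Rpl7a, of the large subunit, averaged 242 ± 39.8 RPKM in FSC-A High (n = 4) and 88.4 ± 8.28 RPKM in FSC-A Low (SD, n = 3; limma log2 difference 1.43, adjusted p = 5.22e-05; 0.81 without that trend). Rpl23a and Rpl32 had log2 differences of 1.21 and 0.99 and were called as well, and without the length and GC trend of 0.50 and 0.26.

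All 79 cytosolic ribosomal protein genes passed the filter; 75 were called higher and 4 did not pass the test, with a median of 0.89, close to that of the 7 noncoding hosts. Rps14, of the small subunit, averaged 1964 ± 229 RPKM in FSC-A High (n = 4) and 931 ± 76.3 RPKM in FSC-A Low (SD, n = 3; limma log2 difference 1.07, adjusted p = 4.66e-05; 0.41 without the length and GC trend). Split by whether a snoRNA is annotated inside the gene, the 30 ribosomal protein genes with one had a median of 0.79 with 27 higher, and the 49 without one had a median of 0.96 with 48 higher. Without the length and GC trend both medians were 0.32, and 35 of the 79 were called higher. Over all genes tested, 15.6% were called higher as deposited, and 1026 of 10475 genes without that trend.

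The proteins that pack snoRNAs were partly higher: of 17 tested among 18, 8 were called higher and 9 did not pass, with a median of 0.47. With library total scaling 5 were higher and the median was 0.15, and without the length and GC trend 5 were higher and the median was 0.24. Over all genes tested, 15.6% were called higher as deposited. With library total scaling 977 of 10617 genes were higher, and without the length and GC trend 1026 of 10475. Nop10, a core protein of H/ACA particles, averaged 219 ± 20.2 RPKM in FSC-A High (n = 4) and 99.1 ± 12.8 RPKM in FSC-A Low (SD, n = 3; limma log2 difference 1.14, adjusted p = 0.000130; 0.56 without the length and GC trend). Of the assembly factors, Ruvbl2 had a log2 difference of 1.16, Znhit3 1.71 and Pih1d1 0.92, and each was called. Without the length and GC trend these were 1.12, 1.05 and 0.59.

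Factors of nonsense-mediated decay, which acts on several host RNAs, went both ways. Of 14 tested among 16, 3 were called higher, 3 lower and 8 did not pass, against 15.6% higher and 11.7% lower over all genes. With library total scaling 3 were lower and no call was higher, and without the length and GC trend 1 was higher and no call was lower. The higher ones were members of the exon junction complex, Eif4a3 (0.74), Magoh (0.79) and Rbm8a (1.03, all as log2 differences). Once length and GC were corrected for, Magoh was at -0.047 and Eif4a3 at 0.43, and neither was called. Dhx34, an RNA helicase of the pathway, averaged 1.91 ± 1.55 RPKM in FSC-A High (n = 4) and 8.30 ± 3.13 RPKM in FSC-A Low (SD, n = 3; limma log2 difference -1.81, adjusted p = 0.0139), and its call was lost with the same correction (-1.17, limma adjusted p = 0.0994).

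Proteins of the bodies that Neat1 and Malat1 belong to were counted next. Over all genes tested, 15.6% were called higher and 11.7% lower, and the counts of both lists were near these shares. Of 12 paraspeckle proteins, 2 were called higher and 10 did not pass, with a median of -0.14 (0.03 without the length and GC trend, with 2 higher and 1 lower): Nono, a core paraspeckle protein, had a log2 difference of 0.50 and Nudt21, a 3′ end processing factor, one of 0.91. With library total scaling both calls were lost and 2 other members were called lower. Nono was not called without FSC-A High 2 (0.46) or FSC-A Low 3 (0.42), and Nudt21 was not called without any of FSC-A High 2 and 3 and FSC-A Low 1, 2 and 3 (0.87 to 0.92). Of 12 nuclear speckle proteins, 2 were called higher, 2 lower and 8 did not pass, with a median of -0.13, and with library total scaling 1 was higher and 4 were lower, and without the length and GC trend 3 were higher and 2 lower. Srsf3, a splicing factor, averaged 50.1 ± 1.91 RPKM in FSC-A High (n = 4) and 21.5 ± 2.48 RPKM in FSC-A Low (SD, n = 3; limma log2 difference 1.18, adjusted p = 0.000374). Son, a scaffold of speckles, had a log2 difference of 0.91. Pnisr averaged 8.30 ± 2.66 RPKM in FSC-A High (n = 4) and 27.2 ± 1.86 RPKM in FSC-A Low (SD, n = 3; limma log2 difference -1.64, adjusted p = 0.000679), and Srsf1, another splicing factor, had -0.99.

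Of 10 tested among 20 other nuclear or abundant long noncoding RNAs, 1 was called higher, 1 lower and 8 did not pass. Their median was 0.11, and over all genes 15.6% were called higher and 11.7% lower. Without the length and GC trend both calls were lost (Oip5os1 0.59, limma adjusted p = 0.0721; Firre -0.68, limma adjusted p = 0.172), and the median of the 9 with a length was -0.29. Oip5os1, also named Cyrano, averaged 36.8 ± 5.20 RPKM in FSC-A High (n = 4) and 16.3 ± 0.938 RPKM in FSC-A Low (SD, n = 3; limma log2 difference 1.12, adjusted p = 0.00120). Firre, a nuclear RNA of the X chromosome, averaged 2.11 ± 0.765 RPKM in FSC-A High (n = 4) and 5.62 ± 1.59 RPKM in FSC-A Low (SD, n = 3; limma log2 difference -1.09, adjusted p = 0.0275). Its call was lost without any of FSC-A High 2, 3 and 4 and FSC-A Low 2 and 3 (-1.07 to -0.93). Among 13 tested neighbours of the 10 genes, 3 were higher, 1 lower and 9 did not pass, a share near the 27.3% called over all genes, with a median of -0.10. With library total scaling 2 were higher and 2 lower, and without the length and GC trend 2 were higher and 3 lower. Rcc1, beside Snhg3, had a log2 difference of 1.31, Wdr74, beside Snhg1, 0.77, and Rnaseh2b, near Dleu2, 1.09, while Slc25a45, near Malat1 and Neat1, had -1.34. Without the length and GC trend Wdr74 was at 0.34 and no longer called, and Rnaseh2b was at 0.66.

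By level, Gas5 led the 10 genes in both gated groups. Among the 355 long noncoding genes tested, ranked by mean RPKM over the 7 libraries, Gas5 was at rank 2, Malat1 at 5, Snhg6 at 7, Snhg8 at 50, Snhg3 at 52, Snhg1 at 53, Snhg5 at 100, Neat1 at 154, Snhg12 at 232 and Dleu2 at 338. In FSC-A High the order was Gas5, Malat1, Snhg6, Snhg8, Snhg1, Snhg3, Snhg5, Neat1, Snhg12 and Dleu2. The ranges of Malat1 and Snhg6 overlapped there, as did those of Snhg8, Snhg1 and Snhg3 and those of Neat1 and Snhg12. In FSC-A Low the ranges of Gas5 and Malat1 overlapped too, with Gas5 above Malat1 in 3 of 3 libraries, and Neat1 stood clear above Snhg12.

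The closest patterns over the 7 gated libraries were sought among 4104 genes with a mean log2 value of at least 4, as the root mean square difference of log2(RPKM + 1) values centred on each gene's mean. The mean of the 7 hosts was closest to Slc25a5 (0.0723), an ADP/ATP carrier of mitochondria, Rpl6 (0.0774), a ribosomal protein, and Eif6 (0.0787), a factor of the large ribosomal subunit. Malat1 was closest to Ube2l6 (0.131), Zfp330 (0.132) and Wtap (0.135), the last a subunit of the RNA m6A methyltransferase. Neat1 was closest to Hyal2 (0.0938), Thap4 (0.112) and Aplp2 (0.119), which like it had lower means in FSC-A High. Among the 10 genes themselves, Snhg3 and Snhg12 were closest (0.162), followed by Snhg6 and Malat1 (0.218) and Gas5 and Snhg6 (0.225), while Snhg1 and Neat1 were farthest apart (0.926). These distances include the difference between the groups and carry no test.

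The unfractionated libraries held 30889443, 21307178, 27206879 and 29952311 reads and are given in CPM, which scales a gene's reads to the total of its library. They are in another unit than the gated libraries and were not tested against them. The library labelled WT HSC 1 stood apart for several of these genes. Malat1 was at 5805 CPM there and at 2297, 2131 and 2025 CPM in WT HSC 2, 3 and 4, which is 0.580% of the reads of that library against 0.202% to 0.230%. The other hosts than Gas5 together were at 151 CPM in WT HSC 1 and at 460, 363 and 236 CPM in WT HSC 2, 3 and 4. Over 8995 genes with a mean of at least 10 CPM, by a gap to the nearest library wider than Dixon's critical value WT HSC 1 was set apart as high in 0.823% and as low in 0.545%, fewer than WT HSC 4 with 2.82% and 1.43%. The mitosis markers summed to 974, 831, 1114 and 204 CPM in WT HSC 1 to 4.

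Gas5 was at 930.1, 1127, 987 and 795 CPM (mean 959.8 ± 137, SD, n = 4), and Neat1 at 47.1, 44.0, 37.2 and 43.1 CPM (mean 42.9 ± 4.12, SD, n = 4). Snhg5 was at 35.8, 172, 93.0 and 57.5 CPM, and Snhg1 at 22.7, 70.4, 74.0 and 62.2 CPM. With all 4 libraries the coefficient of variation was 9.62% for Neat1, 14.3% for Gas5 and 28.3% to 66.6% for the other hosts. That order depended on WT HSC 1: without it Snhg6 varied by 2.76%, Malat1 by 6.38%, Snhg1 by 8.78%, Neat1 by 8.86% and Gas5 by 17.2%.

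Snhg6 was at 25.6, 52.1, 49.9 and 49.6 CPM, Snhg8 at 25.9, 85.4, 80.5 and 33.4 CPM, and Snhg3 at 36.4, 70.6, 49.5 and 22.3 CPM. Snhg12 was at 4.21, 9.53, 16.03 and 10.8 CPM, and Dleu2 at 0.615, 2.72, 2.28 and 0.234 CPM, from 7 to 62 reads. WT HSC 1 was the lowest library for Snhg1, Snhg5, Snhg6, Snhg8 and Snhg12, while WT HSC 4 was the lowest for Gas5, Snhg3 and Dleu2.

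Per kilobase of transcript, the order of Malat1 and Gas5 depended on WT HSC 1. It also rests on the length used for Gas5, the 2556 nt of a transcript with retained introns, which is uncertain. The length used for Snhg8 is uncertain in the same way. With all 4 libraries Malat1 averaged 439 ± 262 CPM per kb and Gas5 376 ± 53.8 CPM per kb (SD, n = 4). Without WT HSC 1 Malat1 averaged 308 ± 19.6 and Gas5 379 ± 65.1 CPM per kb (SD, n = 3), with Gas5 above Malat1 in 3 of 3 libraries but overlapping ranges, the order also found in both gated groups. Snhg6 followed at 111 ± 31.3 and Snhg3 at 102 ± 47.0 CPM per kb. Snhg1, Snhg5 and Snhg8 came next within overlapping ranges, then Snhg12 at 16.7 ± 8.01 and Neat1 at 14.3 ± 1.37 CPM per kb, and last Dleu2 at 1.02 ± 0.850 CPM per kb (SD, n = 4).

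**Figure D5:**
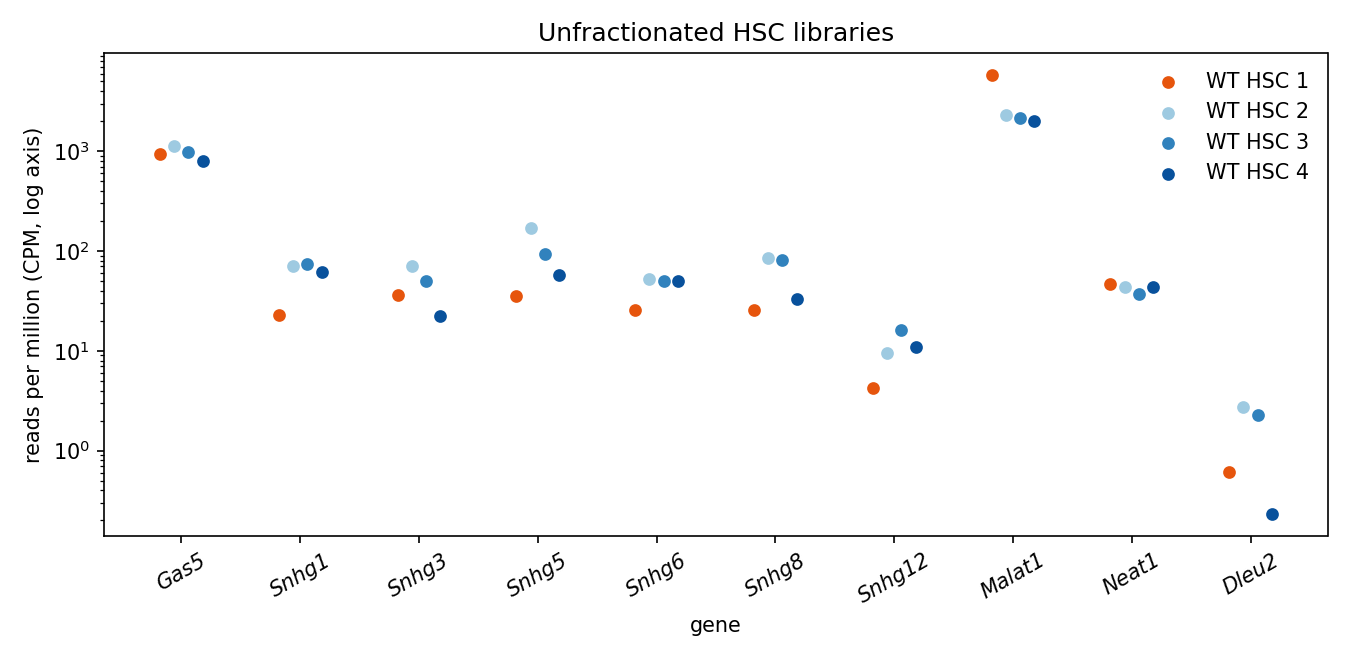
CPM (log axis) of the 10 genes in the 4 unfractionated libraries, with 1 point per library. WT HSC 1 lies highest for Malat1, at 5805 CPM, and lowest for Snhg1, Snhg5, Snhg6, Snhg8 and Snhg12.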

How the data were processed

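RNA was measured by Smart-seq2 in 11 libraries, grouped by their titles in the labels. The deposited gated files hold 33984 transcripts each, in values taken as RPKM computed by the authors; the unit is inferred from the values, since no label or header names it, and FPKM cannot be told apart. The deposited unfractionated files hold a signal for 23420 gene symbols, in the form of whole reads divided by a library's own size factor: multiplied back, 100% of the values became whole reads (within 0.01), which were expressed as CPM. They form a single group, so no count test was made. In them 27 symbols had been turned into dates. STAR, DESeq2 and mm10 (the same assembly as GRCm38) are named, without versions or roles, per the submitters' processing notes.

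Where a gene had several transcripts, the one highest on average in the gated libraries stood for it. Symbols and coordinates came from RefSeq (33552 transcripts matched by identifier, 364 by symbol or synonym, 68 named by the file), lengths and GC content from GENCODE M21. FSC-A High was compared with FSC-A Low by limma 3.58.1 (R 4.3.3; lmFit, eBayes with trend) on log2(RPKM + 1), without covariates; the filter was 1 RPKM in 3 libraries or more. The step was tested on simulated data. Named genes were the 10 genes, of each list the called genes of smallest p (4 at most), and the 3 closest patterns; predicted genes, Riken clones and pseudogenes were not named, and results of some single genes are not reported here; counts and medians include them. The members and lists were chosen with earlier results of these data known. Alternatives were other scalings (TMM from edgeR 4.0.16), pseudocounts of 0.5 and 5, filters, the replicate number as a block, each library left out, sums or means over transcripts, an adjusted p below 0.01, and subtraction, per library, of a spline with 5 degrees of freedom over length and GC content or over level; subtraction over length alone and over GC alone was chosen after seeing the data. The depth of the gated libraries is an estimate. Python 3.11.15 with pandas 2.3.3, numpy 2.4.6 and matplotlib 3.10.9 was used for tables and plots.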

Additional observations from a re-analysis of the deposited data

Results flagged for a closer look

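Of 21 groups of 4 libraries that were tested, 2 held a library whose gap to the nearest other one, divided by the whole range, exceeded Dixon's critical value at the 95% level; chance flags about 1 in 20 groups. Both concern WT HSC 1. Malat1 was high there at 5804.6 CPM, with a gap of 0.928 of the range, and Snhg6 was low there at 25.607 CPM, with a gap of 0.903 of the range. The labels give no batch or date for this library.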

How the results depend on the processing

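Over all genes 2899 were called. Alternatives that moved this count by over 1.5 times were the removal of the length and GC trend (1807), of the length trend alone (1923) and an adjusted p below 0.01 (1605); leaving out 1 library gave 2215 to 2801. Of the 10 genes 5 were called, against 3 with library total scaling, no filter, the replicate block, the length trend alone removed or an adjusted p below 0.01, 2 (Gas5 and Malat1) without the length and GC trend, and 3 to 5 with a library left out. It was 3 without FSC-A High 4 and without FSC-A Low 3, where Snhg3 and Snhg6 were lost. The gap of 0.90 between hosts and nuclear RNAs became 0.50 with a filter of 5 RPKM (6 hosts and Malat1 only), -0.016 without the length and GC trend, 0.088 without the length trend alone, and was 0.73 to 1.01 with a library left out. Reversed were Snhg6 (-0.31 and -0.11) under both length removals, and Snhg15 (-0.048) and Magoh (-0.047) under that of length and GC; the cause was not tested. Of the calls, 57.1% were of higher genes, against 29.95% with library total scaling.

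Replicate numbers did not pair the samples: libraries with the same number had correlations of -0.03, 0.06 and 0.00 in their deviations from the group means. The fit with the replicate block called 2428 genes, and Snhg3 (adjusted p = 0.0667 by limma) and Snhg6 (0.0665) were no longer called.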
